A study of Mus musculus with 18 samples.

Results

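Cxcl9 and Cxcl10 encode chemokines of the CXC family, and Cxcr3 and Cxcr4 encode CXC chemokine receptors. All probe sets annotated to one of these symbols alone were taken, so the members are 4 of 18193 genes so annotated, read by 5 of the 45037 probe sets on the array that are not controls. Cxcl9 was read by probe sets 1418652_at and 1456907_at, Cxcl10 by 1418930_at, Cxcr3 by 1449925_at and Cxcr4 by 1448710_at. Their levels were followed over 18 expression arrays of naive mouse CD4 T cells.

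Chemokines are secreted proteins that direct the movement of cells bearing the matching G protein-coupled receptor. CXCL9 and CXCL10 are ligands of CXCR3, which activated and type 1 helper T cells carry into inflamed tissue, and both are known as interferon-inducible genes. CXCR4 is the receptor of CXCL12 and is carried by naive T cells as they circulate through lymphoid organs and bone marrow.

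The cells were sorted by flow cytometry from spleen and lymph nodes as CD4+CD44-CD62L+CD25- cells and kept in vitro for 3 hours. STAT3KO cells carried the Cd4-Cre_C57BL6-STAT3<tm1Dlv> genotype, in which a Cre driven by Cd4 deletes Stat3 in T cells, and wild type (WT) cells came from the same labelled strain, C57BL/6J. Within each genotype the cells received interleukin 27 (IL-27) at 20 ng/ml, interleukin 6 (IL-6) at 20 ng/ml, or medium alone. Both cytokines signal through a receptor that contains the chain gp130 and activate STAT3. Each of the 6 groups had 3 arrays, which the design text calls biological triplicates; the labels used here do not say the animals' age or whether animals were pooled.

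Signals below are probe set intensities after quantile normalisation, in arbitrary units, and changes are differences of log2(signal + 32), given with their standard error (SE). A change was called at a Benjamini-Hochberg adjusted p under 0.05 over the 26860 probe sets that lay above the median of their own array on at least 3 arrays. The constant of 32 makes the change of a weak probe set smaller than the ratio of its signals. Cxcl10, Cxcr3 and Cxcr4 were tested, and neither Cxcl9 probe set was.

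All 9 measured markers of naive CD4 T cells lay above the array median on all 18 arrays. Stat3 probe set 1460700_at averaged 1182 units in STAT3KO cells in medium, against 2599 units in WT cells in medium (log2 change -1.11 ± 0.12, limma adjusted p = 1.15e-05). Probe set 1426587_a_at was also lower there (-0.92 ± 0.13, adjusted p = 9.76e-05), 1424272_at was higher (0.80 ± 0.27, adjusted p = 0.0345) and 1459961_a_at differed by 0.12 ± 0.20 (adjusted p = 0.704); which of them lie inside the deleted stretch of Stat3 is not known here. The summed signal of 15 myeloid markers was 4615 to 9679 units on the STAT3KO arrays and 2557 to 3672 units on the WT arrays. The summed signal of 13 B cell markers was 2240 to 3404 units on the STAT3KO arrays, against 1123 to 1497 units on the WT arrays. Cd14, Itgam and Csf3r among the myeloid markers, and Pax5 and Fcrla among the B cell markers, lay above the median on no array. Cst3 and Csf1r among the myeloid markers, and Bank1 and Ms4a1 among the B cell markers, lay above it on all 18 arrays. S100a8 and S100a9 lay above it on 9 arrays each and reached 3495 and 2830 units. Among STAT3KO arrays, those numbered 3 had myeloid sums of 4615 to 4737 units, against 7345 to 9679 units on those numbered 1 and 2. The part of these other cells in the results was not tested, and genotype and cell makeup cannot be told apart in the comparisons of STAT3KO with WT cells. In total RNA of sorted cells, fewer cells of a type and less RNA per cell cannot be told apart.

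The upstream sequences of the 2 chemokine genes are shown because these genes lie close together on the same chromosome and differed in level. Cxcl10 was called higher with IL-27 than in medium in both genotypes, and Cxcl9 stayed in the low range of the array. Each is the 250 bases before the annotated transcript start, 5′ to 3′ on the gene's strand (minus strand of chromosome 5), from RefSeq with build GRCm38.p6, at chr5:92348890-92349139 for Cxcl10 and chr5:92328080-92328329 for Cxcl9. Capitals mark matches to 3 motifs searched on both strands. They are the STAT dimer motif GAS as TTCNNNGAA, the interferon-stimulated response element ISRE as GAAA, any 2 bases and GAAA, and the NF-κB motif as GGGA, any 4 bases and CC.
Cxcl10: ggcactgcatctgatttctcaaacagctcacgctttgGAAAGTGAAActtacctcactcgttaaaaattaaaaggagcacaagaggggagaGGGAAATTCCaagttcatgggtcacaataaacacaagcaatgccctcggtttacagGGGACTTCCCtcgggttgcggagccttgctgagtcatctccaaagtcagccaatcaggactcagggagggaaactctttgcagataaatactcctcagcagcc
Cxcl9: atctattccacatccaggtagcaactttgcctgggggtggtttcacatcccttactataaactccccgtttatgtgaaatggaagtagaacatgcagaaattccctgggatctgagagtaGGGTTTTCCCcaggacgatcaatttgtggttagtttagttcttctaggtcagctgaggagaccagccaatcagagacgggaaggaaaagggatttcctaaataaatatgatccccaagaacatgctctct

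The Cxcl10 sequence held 1 ISRE match, 213 to 204 bases before the start, and 2 NF-κB matches, 159 to 150 and 103 to 94 bases before it. The Cxcl9 sequence held 1 NF-κB match, read on the opposite strand, 130 to 121 bases before the start, and no ISRE match. Neither held the GAS letters. The same windows of Cxcr3 and Cxcr4 held none of the 3 motifs. Among 32851 promoter windows of the same length, 2.98% held the ISRE letters, 17.6% the NF-κB letters and 7.02% the GAS letters. A match describes letters and does not show a bound site, and the matches did not overlap one another.

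Cxcl10, the interferon-inducible ligand of CXCR3, was higher with IL-27 than in medium in both genotypes, and higher with IL-6 than in medium in STAT3KO cells. With IL-27, arrays 1, 2 and 3 of STAT3KO cells read 2914, 4276 and 4037 units, and those of WT cells read 2299, 1082 and 1375 units. With IL-6, the STAT3KO arrays read 682, 851 and 1204 units and the WT arrays 473, 189 and 116 units. In medium, the STAT3KO arrays read 122, 281 and 330 units and the WT arrays 329, 116 and 130 units. All IL-27 arrays of both genotypes lay above every medium array, while the IL-6 arrays did so in STAT3KO cells and overlapped medium in WT cells. Array 1 was the lowest of each STAT3KO group and the highest of each WT group.

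**Figure D1:**
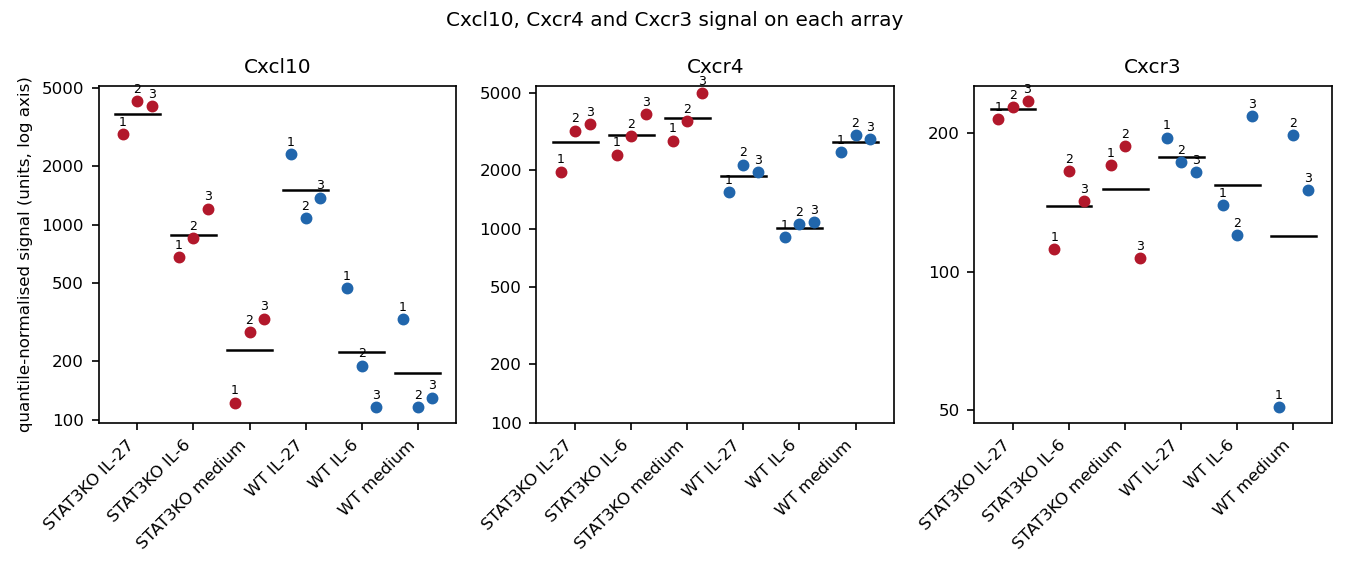
Quantile-normalised signal (log axis) of Cxcl10, Cxcr4 and Cxcr3 on each array by group, with points numbered by replicate, STAT3KO in red and WT in blue, and bars at the mean taken on the log2(signal + 32) scale. Cxcl10 is highest with IL-27 in both genotypes, Cxcr4 is lowest in WT cells with IL-6 (907 to 1083 units), and Cxcr3 stays between 50.6 and 235 units.

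In WT cells, Cxcl10 averaged 1585 ± 635 units with IL-27 and 192 ± 119 units in medium (SD, n = 3 each). The change was 2.91 ± 0.42, a 7.50-fold rise (limma adjusted p = 0.000184), and ranked 34th from the top among the tested probe sets. Cxcl10 was the 1 probe set called of the 3 tested, against 3.06% of all probe sets called in this comparison, and 2 of the 3 had groups that did not overlap, against 19.4% of all. With IL-6, WT cells averaged 259 ± 189 units (SD, n = 3), and the change against medium was 0.31 ± 0.42 (adjusted p = 0.824, 95% interval -0.57 to 1.19). The interval includes 0 and rises of up to 1.19. With 3 arrays a group, a response to IL-6 within that range was neither shown nor excluded.

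IL-27 and IL-6 differed directly in WT cells. Cxcl10 was 6.05-fold higher with IL-27 than with IL-6 (log2 change 2.60 ± 0.42, limma adjusted p = 0.000967), the ninth largest rise among all probe sets tested. This comparison called 2 of the 3 tested probe sets, Cxcl10 and Cxcr4, against 2.32% of all, and the same 2 had groups that did not overlap, against 17.2% of all. The Cxcl10 calls for IL-27 in WT cells, against medium and against IL-6, held under all 32 alternative settings, with adjusted p up to 0.00242 and 0.00968.

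In STAT3KO cells, Cxcl10 averaged 3742 ± 727 units with IL-27, 912 ± 266 units with IL-6 and 244 ± 108 units in medium (SD, n = 3 each). The rise with IL-27 over medium was 14.3-fold (log2 change 3.84 ± 0.42, limma adjusted p = 4.73e-06), the 17th largest of all. It was the 1 call among the 3 tested probe sets, against 3.6% of all, while Cxcl10 and Cxcr3 were the 2 whose groups did not overlap, against 16.2% of all. The Cxcl10 call held under all 32 alternatives with adjusted p up to 0.000114.

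With IL-6, Cxcl10 rose 3.54-fold over medium in STAT3KO cells (log2 change 1.83 ± 0.42, limma adjusted p = 0.0301). It was again the 1 call of 3, against 1.43% of all probe sets, and the 1 without overlap, against 11.3% of all. This call was lost in 7 of the 32 alternatives, with adjusted p up to 0.205, while the change stayed between 1.46 and 2.08. Leaving out a single array lost it for array 1 of STAT3KO cells in medium (1.46, adjusted p = 0.205), array 2 in medium (1.97, 0.0575), array 2 with IL-6 (1.87, 0.0815) and array 3 with IL-6 (1.62, 0.163).

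IL-27 against IL-6 in STAT3KO cells gave the largest log2 change of any of the 26860 probe sets for Cxcl10, 2.02 ± 0.42 or 4.05-fold, and its 2 groups of arrays did not overlap. The limma adjusted p was 0.0594, so it was not called. No tested chemokine or receptor probe set was called here, against 0.205% of all, with 1 of the 3 at an unadjusted p under 0.05, and 2 of the 3 had groups without overlap, against 7.85% of all. Without array 1 of WT cells in medium, array 1 or 3 of WT cells with IL-6, or array 1 of STAT3KO cells in medium, the call was made, with adjusted p from 0.0207 to 0.0386. These arrays entered the shared variance estimate, and the change itself stayed between 2.01 and 2.03.

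Between genotypes, Cxcl10 with IL-6 was 3.62-fold higher in STAT3KO than in WT cells (log2 change 1.85 ± 0.42, limma adjusted p = 0.004), with no overlap between the 2 groups. This comparison called 2 of the 3 tested probe sets, Cxcl10 and Cxcr4, both higher in STAT3KO cells, against 20.4% of all, and the same 2 had groups without overlap, against 36.8% of all. With the B cell and myeloid marker level of each array in the model, the Cxcl10 difference was 2.17 ± 1.03 and no longer called (adjusted p = 0.247); its range over all alternatives was 8.75e-06 to 0.247. The myeloid sums with IL-6 were 4689 to 9035 units in STAT3KO cells and 2714 to 3285 units in WT cells, and their part in the difference cannot be told apart from genotype.

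With IL-27, Cxcl10 was 2.42-fold higher in STAT3KO than in WT cells (1.27 ± 0.42, limma adjusted p = 0.0483), and no STAT3KO array overlapped a WT array. It was the 1 call of the 3 tested, against 14.7% of all probe sets, and 2 of the 3 did not overlap, against 32% of all. The call was lost in 18 of the 32 alternatives, with adjusted p from 0.000569 to 0.398 over all of them. The arrays whose single removal lost it were 1, 2 and 3 of STAT3KO cells with IL-27, 2 and 3 of STAT3KO cells with IL-6, 2 of STAT3KO cells in medium, 2 and 3 of WT cells with IL-27, 2 of WT cells with IL-6, and 2 and 3 of WT cells in medium. Without any 1 of these, the change was 1.04 to 1.45 and the adjusted p 0.0504 to 0.173. The myeloid sums with IL-27 were 4737 to 8954 units in STAT3KO cells and 3074 to 3419 units in WT cells.

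In medium, Cxcl10 differed between STAT3KO and WT cells by 0.34 ± 0.42 (adjusted p = 0.588, 95% interval -0.54 to 1.22) and the arrays overlapped. None of the 3 tested probe sets was called by limma in medium, against 24.3% of all, none had an unadjusted p under 0.05, and none had groups without overlap, against 40.3% of all.

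The difference between genotypes in the cytokine effects was tested as an interaction. For Cxcl10, the IL-6 effect in STAT3KO minus that in WT cells was 1.51 ± 0.59 (limma adjusted p = 0.290, unadjusted p = 0.0197) and the IL-27 effect differed by 0.93 ± 0.59 (adjusted p = 0.728). The difference between IL-27 and IL-6 changed by -0.58 ± 0.59 (adjusted p = 0.969). In this fit, the Cxcl10 call with IL-6 in STAT3KO cells and its absence in WT cells is therefore not shown to be a difference between the genotypes in the response; the interaction was called in 1 of the 32 alternatives, with an adjusted p of 0.00459. No member was called in the 3 interactions, against 2.21% of all probe sets for the IL-6 effect, 0.00745% for the IL-27 effect and 0.827% for IL-27 against IL-6. The unadjusted p was under 0.05 for 2, 0 and 1 of the 3 tested probe sets in these interactions.

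**Figure D2:**
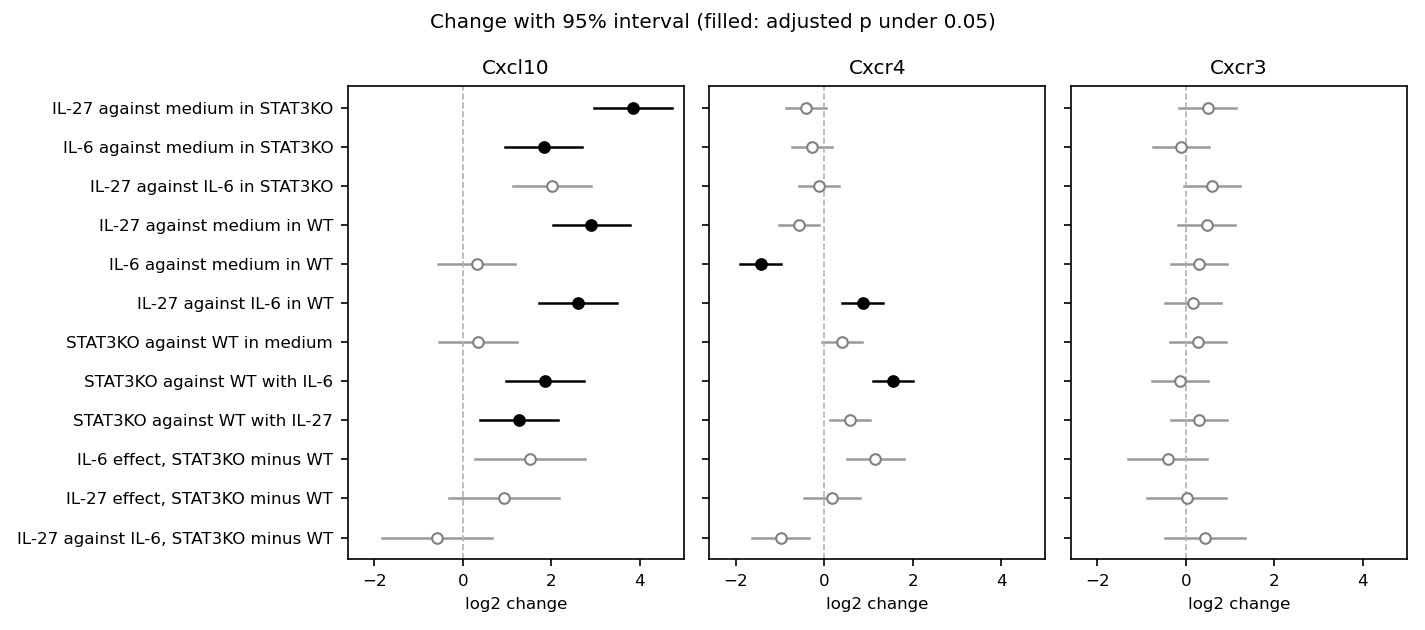
Log2 change (x axis) of Cxcl10, Cxcr4 and Cxcr3 in the 12 comparisons (rows), with 95% intervals from limma; filled points have an adjusted p under 0.05. Cxcl10 reaches 3.84 with IL-27 against medium in STAT3KO cells, Cxcr4 reaches -1.44 with IL-6 against medium in WT cells, and no Cxcr3 point is filled.

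Ordered by mean log2 level, Cxcl10 went from WT medium through WT IL-6, STAT3KO medium, STAT3KO IL-6 and WT IL-27 to STAT3KO IL-27. Neighbouring groups in this order overlapped except STAT3KO IL-6 above STAT3KO medium, and STAT3KO IL-27 above WT IL-27. Cxcl10 lay above the array median on 14 of 18 arrays, and the 4 below it were in medium or with IL-6.

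Cxcl9, the interferon-γ-inducible neighbour of Cxcl10, lay below the array median on all 18 arrays with both probe sets. Probe set 1418652_at read 99.4, 41.4 and 83.4 units in STAT3KO cells with IL-27, 9.76, 7.15 and 37.5 units with IL-6, and 61.4, 21.2 and 9.08 units in medium. In WT cells it read 34.8, 19.5 and 72.2 units with IL-27, 14.9, 5.03 and 7.34 units with IL-6, and 11.6, 14.5 and 49.96 units in medium. In each genotype its 3 arrays with IL-27 lay above the 3 with IL-6, and they overlapped those in medium. Among the tested probe sets, IL-27 and IL-6 arrays did not overlap for 7.85% in STAT3KO cells and 17.2% in WT cells.

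Probe set 1456907_at ranged from 6.00 to 128 units and did not follow the first one; the correlation of their log2 values over the 18 arrays was -0.09. Fitted without the filter, 1418652_at gave 1.10 ± 0.36 for IL-27 against IL-6 in STAT3KO cells (limma adjusted p = 0.848), its largest change. For 1456907_at the lowest adjusted p was 0.168, for STAT3KO against WT cells in medium (-0.96 ± 0.44). Cxcl9 was thus measured only as lying in the lower part of each array's range at 3 hours.

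**Figure D3:**
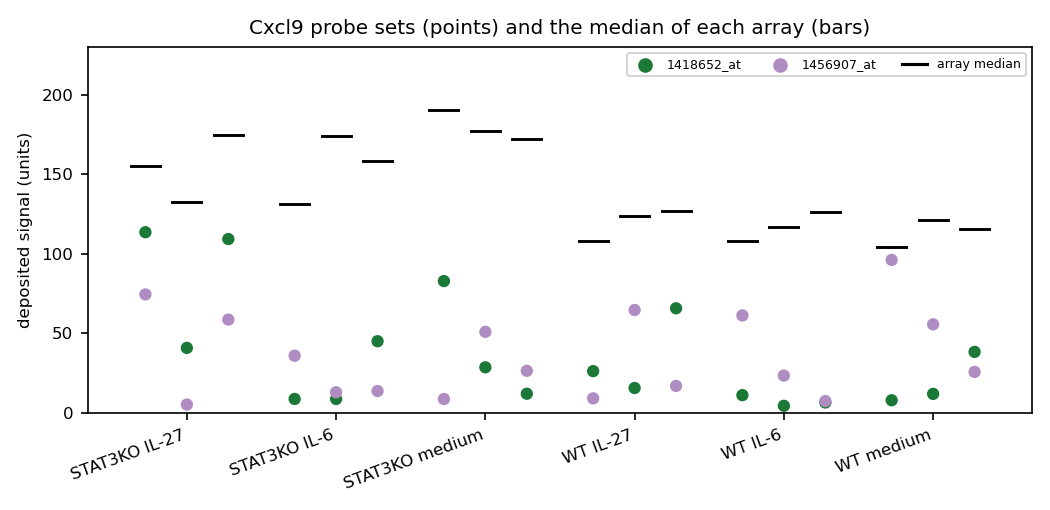
Deposited signal (y axis, units) of the Cxcl9 probe sets 1418652_at and 1456907_at on each of the 18 arrays (points), grouped along the x axis with replicates 1, 2 and 3 in order, with the median signal of each array as a bar. Every point lies below its bar; the medians are 131.5 to 190.3 units on STAT3KO arrays and 104.4 to 126.8 units on WT arrays.

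The genes next to Cxcl10 in the RefSeq order were read in the same fits. These were Naaa, Sdad1, Cxcl9 and Art3 on one side and Cxcl11, Nup54, Scarb2 and Fam47e on the other. Apart from Cxcl10, none of those tested was called with IL-27 in either genotype or with IL-6 in STAT3KO cells (lowest limma adjusted p = 0.123). Cxcl11 is the third CXCR3 ligand gene and is annotated in RefSeq as a transcribed pseudogene in this mouse strain. Its probe set 1419697_at lay above the median on 4 arrays, and the change with IL-27 against medium was 1.34 ± 0.44 in STAT3KO cells (limma adjusted p = 0.123) and -0.26 ± 0.44 in WT cells (adjusted p = 0.886).

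Cxcr3, the receptor of CXCL9 and CXCL10, was not called in any of the 12 comparisons (limma adjusted p 0.512 to 1, unadjusted p at least 0.0642). The STAT3KO arrays read 214, 228 and 235 units with IL-27, 112, 166 and 142 units with IL-6, and 171, 187 and 107 units in medium. The WT arrays read 196, 173 and 165 units with IL-27, 139, 120 and 218 units with IL-6, and 50.6, 198 and 150 units in medium. The 3 STAT3KO arrays with IL-27 lay above every other array except array 3 of WT cells with IL-6.

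The changes of Cxcr3 with IL-27 against medium were 0.49 ± 0.30 in STAT3KO cells (adjusted p = 0.512, 95% interval -0.14 to 1.13) and 0.47 ± 0.30 in WT cells (adjusted p = 0.587, interval -0.17 to 1.10). A change of about 2-fold lies inside both intervals. With IL-6 against medium they were -0.11 ± 0.30 in STAT3KO cells and 0.30 ± 0.30 in WT cells, and neither was called. STAT3KO against WT cells gave 0.30 ± 0.30 with IL-27, -0.13 ± 0.30 with IL-6 and 0.28 ± 0.30 in medium. Cxcr3 lay above the array median on 14 of 18 arrays, 7 in each genotype. Its signal ranged from 50.6 to 235 units, against 907 to 5005 units for Cxcr4, so Cxcr3 was weakly read.

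Cxcr4, the receptor of CXCL12, was lower with IL-6 than in medium in WT cells, and with IL-6 it was higher in STAT3KO than in WT cells. With IL-6, arrays 1, 2 and 3 of STAT3KO cells read 2415, 2995 and 3899 units, and those of WT cells 907, 1054 and 1083 units. With IL-27, the STAT3KO arrays read 1969, 3210 and 3472 units and the WT arrays 1551, 2139 and 1963 units. In medium, the STAT3KO arrays read 2846, 3601 and 5005 units and the WT arrays 2486, 3049 and 2902 units. The WT IL-6 arrays lay below all 15 others. In STAT3KO cells the 3 conditions overlapped, but at each array number the IL-6 and IL-27 arrays read below the medium array. Array 1 was the lowest of each of the 6 groups, and the numbers were not used as pairs.

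In WT cells, Cxcr4 averaged 1884 ± 302 units with IL-27, 1015 ± 94.5 units with IL-6 and 2813 ± 292 units in medium (SD, n = 3 each). With IL-6 it fell by 1.44 on the log2 scale against medium (SE 0.22, 2.72-fold lower, limma adjusted p = 0.000173), the 38th largest fall among all tested probe sets. It was the 1 call of the 3 tested, against 6.19% of all, and the 1 with groups that did not overlap, against 23.1% of all. The call held under all 32 alternatives, with adjusted p up to 0.00187. In the same comparison 7 of 9 markers of naive CD4 T cells fell and none rose (median -0.65), and their summed signal averaged 91489 units with IL-6 and 127197 units in medium. The part of this in the fall of Cxcr4, and of the other receptor, desensitisation and trafficking genes below, was not tested. In STAT3KO cells 2 of the 9 markers fell with IL-6 (median -0.13), against 1.43% of all probe sets called. With IL-27 4 of the 9 fell in STAT3KO cells (median -0.31), against 3.6% of all. In WT cells 5 of the 9 fell with IL-27 (median -0.43), against 3.06% of all. Ccr7, described below, is 1 of the 9. For Cxcr4 with IL-27 the WT arrays also lay below those in medium, but the change of -0.58 ± 0.22 was not called (limma adjusted p = 0.216, 95% interval -1.03 to -0.12).

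Set directly against each other in WT cells, IL-27 left Cxcr4 1.82-fold higher than IL-6 did (log2 change 0.86 ± 0.22, limma adjusted p = 0.0391), with no overlap. This call was lost in 9 of the 32 alternatives, where the adjusted p ranged up to 0.182. Leaving out one array lost it for arrays 1, 2 and 3 of WT cells with IL-6 (0.79, 0.89 and 0.91), arrays 2 and 3 of WT cells with IL-27 (0.77 and 0.83), array 2 of STAT3KO cells in medium (0.87) and array 2 of WT cells in medium (0.86), with adjusted p from 0.0521 to 0.182.

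In STAT3KO cells, Cxcr4 averaged 2884 ± 803 units with IL-27, 3103 ± 748 units with IL-6 and 3817 ± 1096 units in medium (SD, n = 3 each). Against medium, the change was -0.40 ± 0.22 with IL-27 (limma adjusted p = 0.428) and -0.28 ± 0.22 with IL-6 (adjusted p = 0.857, 95% interval -0.74 to 0.17). IL-27 against IL-6 gave -0.12 ± 0.22 (adjusted p = 1). The interval for IL-6 lies above the -1.44 measured in WT cells, but it leaves out the error of that value. The difference between the genotypes in the IL-6 effect is tested directly below and was not called.

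With IL-6, Cxcr4 was 2.95-fold higher in STAT3KO than in WT cells (log2 change 1.56 ± 0.22, limma adjusted p = 4.51e-05), with no overlap, and this call held under all 32 alternatives with adjusted p up to 0.000827. Its size ranged from 1.21 with median centring to 2.82 with the marker covariate, and was 1.39 without the STAT3KO arrays numbered 3 (adjusted p = 9.89e-05). With IL-27 the difference was 0.58 ± 0.22 (adjusted p = 0.0800) and it was 0.83 and called without array 1 of STAT3KO cells with IL-27 (adjusted p = 0.0183). The marker covariate moved this difference to 1.72, which was called (limma adjusted p = 0.0232), and median centring moved it to 0.24 (adjusted p = 0.479). In medium the difference was 0.40 ± 0.22 (adjusted p = 0.184). Median centring turned it to -0.33 while the marker covariate moved it to 1.64, so no direction is given.

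The IL-6 effect on Cxcr4 in STAT3KO minus that in WT cells was 1.16 ± 0.31, with a limma adjusted p of 0.0563 and an unadjusted p of 0.00132. It was not called, and it passed the threshold in 13 of the 32 alternatives, where the size ranged from 0.97 to 1.53 over all of them. Leaving out array 3 of STAT3KO cells in medium (1.37, adjusted p = 0.0185), array 1 of STAT3KO cells with IL-6 (1.32, 0.0334), array 1 of STAT3KO cells with IL-27 (1.16, 0.0246) or array 3 of STAT3KO cells with IL-27 (1.16, 0.0421) gave a call. The IL-27 effect differed by 0.17 ± 0.31 (adjusted p = 0.900), and IL-27 against IL-6 by -0.98 ± 0.31 (adjusted p = 0.232).

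Ordered by mean log2 level, Cxcr4 went from WT IL-6 through WT IL-27, STAT3KO IL-27, WT medium and STAT3KO IL-6 to STAT3KO medium. Only the first step, WT IL-27 above WT IL-6, was without overlap. The partner genes of CXCR4 were looked up after their values were seen. None of the 3 Cxcl12 probe sets passed the filter. Ackr3, the scavenging second receptor of CXCL12, was higher in STAT3KO than in WT cells with IL-27 (1.09 ± 0.31, limma adjusted p = 0.0258) and in medium (0.92 ± 0.31, adjusted p = 0.0401), and was not called with either cytokine against medium. Its probe set lay above the median on 3 arrays, the fewest that pass the filter. Dpp4, the peptidase that trims CXCL9, CXCL10 and CXCL12, was lower with IL-6 than in medium in WT cells with probe set 1416697_at (-0.71 ± 0.20, adjusted p = 0.0391), and its other tested probe sets were not called there.

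The members did not move together over the arrays. The correlation of log2 levels over the 18 arrays was 0.34 for Cxcl10 with Cxcr3, 0.13 for Cxcl10 with Cxcr4 and -0.02 for Cxcr3 with Cxcr4. These arrays share treatments and genotypes, and the values are descriptions. The probe sets most like Cxcl10 by this measure were of Clic4 (0.95), a chloride channel family protein, Wars (0.95 with each of 2 probe sets), the tryptophan tRNA synthetase, Tbx21 (0.95), the transcription factor T-bet, and Cd274 (0.94), which encodes PD-L1. Those most like Cxcr4 were Cdk17 (0.97), a cyclin-dependent kinase, Slc20a1 (0.94), a phosphate transporter, Ptpn22 (0.94), a tyrosine phosphatase that restrains T cell receptor signalling, Tnfaip3 (0.94), the NF-κB inhibitor A20, and Dusp2 (0.93), a MAP kinase phosphatase. For Cxcr3 the highest values were lower, from 0.72 for Hoxa9 to 0.76 for Zfp652.

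Among the other CXC chemokines, 7 of 15 measured genes were tested, Cxcl10 included. With IL-27 against medium, Cxcl10 was the 1 gene of the 7 called in STAT3KO cells and again in WT cells, with list medians of -0.13 and 0.11 against medians of -0.02 and -0.03 over all probe sets. These counts stand against 3.6% of all probe sets in STAT3KO cells and 3.06% in WT cells. With IL-6 against medium it was the 1 gene called in STAT3KO cells, against 1.43% of all, and 0 were called by limma in WT cells, against 6.19% of all, where 2 had an unadjusted p under 0.05. Cxcl1, a neutrophil attractant, fell with IL-27 relative to IL-6 in WT cells (-0.85 ± 0.22, limma adjusted p = 0.0437). In medium, 3 of the 7 were called higher in STAT3KO than in WT cells, against 24.3% of all probe sets called. These were Cxcl17 (1.38 ± 0.41, limma adjusted p = 0.0217), Cxcl13 (0.88 ± 0.19, adjusted p = 0.00356) and Cxcl1 (0.65 ± 0.22, adjusted p = 0.0347). They stood beside the higher B cell and myeloid marker sums, whose part was not tested.

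Of 20 measured genes of the CC, C and CX3C chemokines, 7 were tested. Ccl5, a chemokine made by memory and effector T cells, fell in WT cells with IL-27 by 1.505 (SE 0.27, limma adjusted p = 0.00188) and with IL-6 by 1.24 (SE 0.27, adjusted p = 0.006). Its IL-6 effect differed between STAT3KO and WT cells by 1.57 ± 0.38 (limma adjusted p = 0.0327). The summed signal of 10 CD8 T and NK cell markers in WT cells was 3120 to 3656 units in medium. It was 2352 to 2833 units with IL-27, 2142 to 2299 with IL-6, and 2141 to 2777 on the STAT3KO arrays. Klrd1 was the 1 of 5 tested called lower with each cytokine in WT cells, against 3.06% of all probe sets with IL-27 and 6.19% with IL-6. The part of this in the fall of Ccl5 was not tested. Ccl8 rose in WT cells with IL-6 (1.17 ± 0.29, adjusted p = 0.0168). None of the 7 was called with either cytokine against medium in STAT3KO cells by limma, against 3.6% of all probe sets with IL-27 and 1.43% with IL-6, and the unadjusted p was under 0.05 for 1 with IL-27 and 0 with IL-6.

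Among 14 tested chemokine receptor genes, 2 fell with IL-6 in WT cells, Cxcr4 and Ccr7, against 6.19% of all probe sets called, and the median change was 0.01 against -0.01 over all probe sets. Ccr7, the receptor that guides naive T cells into lymph nodes, fell by 0.40 with IL-6 in WT cells (SE 0.07, limma adjusted p = 0.000476). With IL-27 against medium it fell by 0.30 in STAT3KO cells and by 0.38 in WT cells. Ccrl2, a chemerin-binding atypical receptor, rose in STAT3KO cells with IL-27 (2.48 ± 0.37, adjusted p = 0.000275) and with IL-6 (1.73 ± 0.37, adjusted p = 0.018). In WT cells the Ccrl2 difference between IL-27 and medium was 1.35 ± 0.37 and was not called (limma adjusted p = 0.0578), and it was higher with IL-27 than with IL-6 (1.47 ± 0.37, adjusted p = 0.0434). The genotype difference was not called for its IL-27 effect (1.12 ± 0.53, adjusted p = 0.684) or its IL-6 effect (1.85 ± 0.53, adjusted p = 0.0894).

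**Figure D4:**
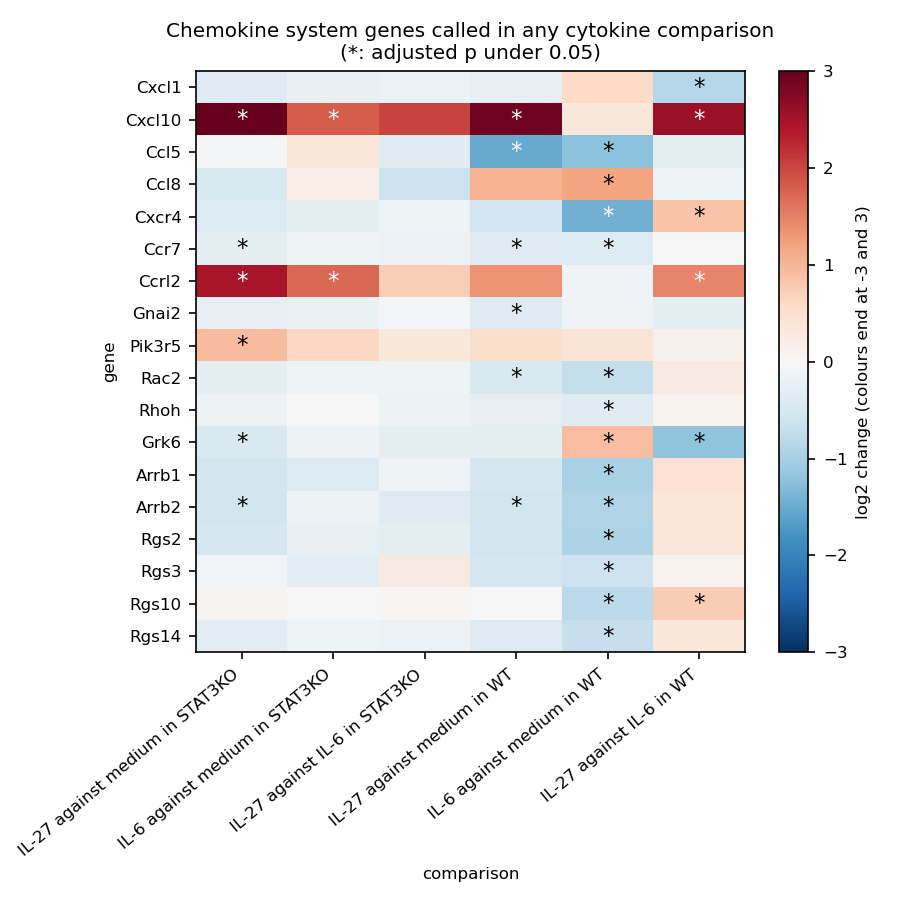
Log2 change (colour, scale ending at -3 and 3) of the chemokine, receptor, signalling and desensitisation genes called in at least one of 6 cytokine comparisons (columns), with asterisks at an adjusted p under 0.05. Cxcl10 and Ccrl2 are dark red in the IL-27 against medium column of STAT3KO cells, and Cxcr4, Ccl5, Arrb1, Arrb2, Rgs2 and Rgs10 are among the blue cells of IL-6 against medium in WT cells.

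Downstream of these receptors, 21 signalling genes were tested. With IL-6 in WT cells, Rac2, a GTPase of the actin cytoskeleton, fell by 0.72 (SE 0.09, limma adjusted p = 3.92e-05) and Rhoh fell by 0.37 (SE 0.10, adjusted p = 0.0368), and none rose, so 2 of 21 were called against 6.19% of all probe sets. None of the 21 was called with IL-6 against medium in STAT3KO cells by limma, against 1.43% of all, where 3 had an unadjusted p under 0.05. IL-27 against medium called 2 of the 21 lower in WT cells, Rac2 (-0.45 ± 0.09) and Gnai2 (-0.40 ± 0.11), against 3.06% of all. In STAT3KO cells it called 1 higher, Pik3r5 (0.95 ± 0.17), against 3.6% of all. The IL-6 effect on Rac2 differed between STAT3KO and WT cells by 0.59 ± 0.13 (adjusted p = 0.0214).

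Another list holds genes that switch off or internalise chemokine receptors. With IL-6 against medium in WT cells, 6 of 13 tested genes fell and 1 rose, against 6.19% of all probe sets, and the median was -0.29 against -0.01. The β-arrestin genes Arrb1 and Arrb2 fell by 0.97 (SE 0.15, limma adjusted p = 0.000294) and 0.90 (SE 0.10, adjusted p = 3.18e-06), and Rgs2, Rgs3, Rgs10 and Rgs14, which speed the shut-off of G proteins, fell by 0.63 to 0.93. Grk6, a kinase that phosphorylates activated receptors, rose by 0.92 (SE 0.11, adjusted p = 7.84e-06). None of the 13 was called with IL-6 against medium in STAT3KO cells by limma, against 1.43% of all, where 3 had an unadjusted p under 0.05. IL-27 against medium called 1 of the 13 lower in WT cells, Arrb2 (-0.55 ± 0.10), against 3.06% of all. In STAT3KO cells it called 2 lower, Arrb2 (-0.55 ± 0.10) and Grk6 (-0.45 ± 0.11), against 3.6% of all. The IL-6 effect differed between STAT3KO and WT cells for Grk6 (-1.08 ± 0.15, adjusted p = 0.000331), Rgs10 (0.81 ± 0.13, adjusted p = 0.0012) and Arrb2 (0.75 ± 0.14, adjusted p = 0.00437).

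Genes reported to induce Cxcl9, Cxcl10 or Cxcr3 were read from a list of 13 tested genes. With IL-27 against medium, 7 of 13 rose in STAT3KO cells and 7 of 13 in WT cells, none fell, and the medians were 0.66 and 0.89. Over all probe sets, 3.6% were called in STAT3KO cells and 3.06% in WT cells, with medians of -0.02 and -0.03. They included the interferon regulatory factor Irf1 (2.67 ± 0.09 in STAT3KO cells, limma adjusted p = 2.17e-13, and 2.77 ± 0.09 in WT cells, adjusted p = 1.03e-13). Tbx21 rose by 2.92 ± 0.27 in STAT3KO cells and by 2.03 ± 0.27 in WT cells with IL-27 (adjusted p = 4.82e-07 and 6.61e-05).

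With IL-6 against medium, 6 of the 13 rose in STAT3KO cells, against 1.43% of all probe sets called, and in WT cells 5 rose and 1 fell, against 6.19% of all. Irf7 rose by 2.50 ± 0.15 in STAT3KO cells and by 1.21 ± 0.15 in WT cells (limma adjusted p = 1.51e-09 and 2.23e-05). The IL-6 effect differed between STAT3KO and WT cells for 4 of the 13, against 2.21% of all probe sets. These were Irf7 (1.29 ± 0.21, adjusted p = 0.00186), Stat2 (1.02 ± 0.25, adjusted p = 0.0331), Ifngr2 (0.81 ± 0.18, adjusted p = 0.0196) and Irf1 (0.79 ± 0.13, adjusted p = 0.00193). For Cxcl10 the same difference was larger in size, 1.51, with an SE of 0.59, and was not called.

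Of 15 tested genes in a list of other lymphocyte trafficking receptors and their regulators, 9 fell and 2 rose with IL-6 in WT cells, against 6.19% of all probe sets called, and the median was -0.61 against -0.01 over all. None of the 15 was called with IL-6 against medium in STAT3KO cells by limma, against 1.43% of all, where 3 had an unadjusted p under 0.05. IL-27 against medium called 5 of the 15 lower in WT cells, against 3.06% of all, and 2 in STAT3KO cells, against 3.6%. Itga4, the integrin chain of VLA-4, fell by 1.83 with IL-6 (SE 0.12, limma adjusted p = 6.98e-09) in WT cells. Its change with IL-27 there was -0.70 ± 0.12 (limma adjusted p = 0.00174). Its IL-6 effect in STAT3KO minus that in WT cells was 1.62 ± 0.17 (adjusted p = 2.24e-05), beside the 1.16 ± 0.31 of Cxcr4 that was not called.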

How the data were processed

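Total RNA of 18 samples was hybridised to 1-colour Affymetrix mouse arrays. The deposited values are linear probe set intensity, made by the authors with GCOS per the submitters' processing notes; its version and settings are not given in the sources at hand. Every array has a 2% trimmed mean of 500. Probe sets were named from the platform annotation, 34945 having 1 symbol, 932 several and 9160 none.

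Here 64 control probe sets were left out. Signals were quantile normalised, since array medians differed by 1.82-fold, above the limit of 1.5, and log2(signal + 32) was fitted per probe set with limma 3.58.1 (R 4.3.3), 1 mean per group, all 18 arrays, 12 residual degrees of freedom, a variance trend, two-sided tests and 12 comparisons. With 3 arrays a group, their number limits the precision, and p-values measure the spread between these arrays. For a list, each gene was read from its tested probe set with the highest mean, and up to 4 called genes a list and comparison were eligible to be named. Beyond this rule, all called desensitisation genes were named for IL-6 against medium in WT cells. The probe sets most like a member were the 5 of highest Pearson correlation. The members and lists were chosen with earlier results of these data known. The model was tested on simulated data.

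Alternatives were other scalings, constants, filters, probe set rules, variance models, array subsets, a replicate block, a marker covariate and leaving out each array.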

Additional observations from a re-analysis of the deposited data

How the results depend on the processing

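Over 32 alternatives, no called direction of Cxcl10, Cxcr3 or Cxcr4 turned. Of 1152 comparisons of a value with its alternative, 1084 kept their side of the threshold, 35 lost a call and 33 gained one. The number of the 3 tested probe sets called moved as follows, and the causes were not tested. With the deposited scaling it was 0 for IL-6 against medium in STAT3KO cells and 1 for the genotype difference in the IL-6 effect, and this scaling shifted the median change of STAT3KO against WT cells by 0.18 in medium and 0.14 with IL-6. Median centring gave 0 for STAT3KO against WT cells with IL-27 and 1 for the IL-6 effect. No variance trend gave 1 for IL-27 against IL-6 in WT cells, 0 for IL-6 against medium in STAT3KO cells and 0 for STAT3KO against WT cells with IL-27. No filter gave 1 and 0 for the first and the last of these. The constant 16 and averaging every probe set of a gene gave 0 for STAT3KO against WT cells with IL-27, and the averaging gave 1 for the IL-6 effect. The constant 64, 1 probe set per gene and only the arrays compared each gave 1 for IL-27 against IL-6 in STAT3KO cells. The last 2 also gave 1 for the IL-6 effect, and only the arrays compared gave 2 for IL-27 against medium in WT cells. Array weights gave 1 for the IL-6 effect and 1 for the genotype difference of IL-27 against IL-6. Without the STAT3KO arrays numbered 3, the counts were 0 for IL-6 against medium in STAT3KO cells, 0 for STAT3KO against WT cells with IL-27 and 1 for the IL-6 effect. The B cell and myeloid marker covariate gave 1 for STAT3KO against WT cells in medium, 1 with IL-6, 1 for the IL-6 effect and 1 for the genotype difference of IL-27 against IL-6. For STAT3KO against WT cells with IL-27 the covariate left the count at 1 but changed the gene. Cxcl10 was no longer called (1.56, limma adjusted p = 0.398) and Cxcr4 was called (1.72, adjusted p = 0.0232).

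A replicate block within genotype gave 2 for IL-27 against medium in STAT3KO and in WT cells, 1 for IL-27 against IL-6 in STAT3KO cells, 1 for STAT3KO against WT cells in medium and 2 with IL-27, 2 for the IL-6 effect and 1 for the genotype difference of IL-27 against IL-6. With it the IL-6 effect differed between genotypes for Cxcl10 (1.51 ± 0.27, limma adjusted p = 0.00459) and Cxcr4 (1.16 ± 0.13, adjusted p = 9.04e-05). In comparisons of genotypes this block leaves the spread between numbers out of the error. The labels do not say what the numbers stand for. Deviations of same-numbered arrays correlated from -0.15 to 0.34 in STAT3KO cells (4 of 9 pairs over 0.1) and from -0.01 to 0.21 in WT cells (6 of 9), and the numbers were not used as pairs. The STAT3KO myeloid sums nevertheless lay in separate ranges by number over the 3 conditions, 7345 to 7675 units for number 1, 8954 to 9679 for number 2 and 4615 to 4737 for number 3. Whether same-numbered arrays shared a source was not tested.

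Leaving out each array gave 1 to 2 for IL-27 against IL-6 in WT cells, and 0 to 1 for IL-6 against medium in STAT3KO cells, IL-27 against IL-6 in STAT3KO cells and the IL-6 effect. For STAT3KO against WT cells with IL-27 it gave 0 to 1.

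Counts over all probe sets moved by over 1.5 times in places. IL-6 against medium called 194 to 472 probe sets in STAT3KO cells, against 383, and 958 to 2355 in WT cells, against 1663. IL-27 against medium called 494 to 1469 in STAT3KO cells, against 968, and 555 to 1346 in WT cells, against 822. IL-27 against IL-6 called 17 to 93 in STAT3KO cells, against 55, and 376 to 909 in WT cells, against 624. STAT3KO against WT cells called 871 to 5594 with IL-27 (3960), 1266 to 7136 with IL-6 (5477) and 1837 to 11387 in medium (6515). The genotype differences called 1 to 6 for IL-27 (2), 357 to 1006 for IL-6 (594) and 81 to 423 for IL-27 against IL-6 (222).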
